A study of Mus musculus with 12 samples.

Results

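Fibroblast growth factors (FGFs) are secreted proteins that bind receptor tyrosine kinases on the cell surface together with heparan sulfate, and the bound receptors switch on the Ras and ERK kinase cascade. The cascade induces its own inhibitors, among them the Sprouty and Spred proteins, which restrain signaling between the receptor and ERK, and dual-specificity phosphatases, which remove phosphate from MAP kinases. In satellite cells, the stem cells of skeletal muscle, FGF signaling drives exit from quiescence and proliferation, and Sprouty1 is known for its part in the return to quiescence. Here the genes of this circuit were followed in the RNA of quiescent and activated satellite cells of *Cxcr4* WT and *Cxcr4* KO mice. The genes were taken by name from the protein-coding rows of the count table, as the *Fgf* genes, *Fgfr1* to *Fgfr4* and *Fgfrl1*, the *Spry* and *Spred* genes and *Dusp4* to *Dusp6*. They numbered 36 of 55401 rows, with 18 secreted ligands, 4 intracellular FGFs, 5 receptors, 6 Sprouty or Spred genes and 3 phosphatases. After the filter on low counts, 32 of the 36 could be tested.

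Cells were sorted by Pax7-ZsGreen fluorescence from hind limb muscle of mice with the genotype *Cxcr4* FL/FL. The KO mice also carried *Pax7-creERT2*, an inducible cre driven by the satellite cell gene *Pax7*, and the WT mice lacked cre. Mice of both genotypes carried the floxed *Cxcr4* alleles and received tamoxifen at 80 mg/kg on 5 days. The mice were adults of 3 to 4 months, and the number of animals behind a library was not given. Quiescent cells were freshly sorted (4 WT and 4 KO libraries), and activated cells were cultured overnight in a growth medium that contained added basic FGF (2 WT and 2 KO libraries). The sample labels do not tie replicates to separate animals, so p-values measure the spread between these libraries, which may in part be technical.

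Quiescent libraries held 12775593 to 23717013 counts and activated libraries 3172164 to 5427280, so 3 counts corresponded to 0.125 to 0.213 CPM (reads of a gene relative to library size, scaled by edgeR's TMM factors) in quiescent and 0.490 to 1.31 CPM in activated libraries. The targeted gene *Cxcr4* lay at 59.1 to 112 CPM in quiescent WT and at 12.5 to 21.2 CPM in quiescent KO libraries, and at 33.3 and 14.4 CPM in activated WT against 5.39 and 13.7 CPM in activated KO libraries. The states also differed in *Xist*, at 1.20 to 7.17 CPM in quiescent and 451 to 817 CPM in activated libraries. The Y-linked *Ddx3y* lay at 289 to 570 CPM in quiescent and 0 to 2.28 CPM in activated libraries. Reads on the gene CT010467.1 took 0.295% to 0.807% of counts in quiescent libraries. In activated replicates 1 and 2 they took 12.6% and 40.3% in WT and 11.5% and 28.8% in KO. Culture, the sex of the cells, depth and this share therefore cannot be told apart in any comparison of the states. All 7 satellite cell markers were detected in each library except *Calcr*, which was at 0 in 1 activated KO library.

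Of the 5 classes, the receptors had the lowest median log2 fold change on activation, -3.21 in WT and -3.23 in KO cells. In activated cells *Fgfr1*, *Fgfr2*, *Fgfr3* and *Fgfr4*, the 4 signaling receptors, fell in WT and in KO cells, where 26.2% and 29.6% of all genes tested changed. *Fgfr4* fell 45.2-fold in WT and 93.4-fold in KO cells, against 3.93-fold and 5.57-fold for *Fgfr1*. *Fgfrl1*, a receptor that lacks the kinase domain, did not pass the test in either genotype. A change was counted where edgeR's quasi-likelihood test gave a Benjamini-Hochberg adjusted p under 0.05 over all 25771 genes tested, the log2 fold change lay beyond 1 in either direction and the mean normalized count was over 10.

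The start regions of *Fgfr3* and *Fgfr4*, 2 of the 4 receptor genes that fell in both genotypes, are shown here for reference. Each is the 250 bases before a RefSeq transcription start (GRCm38.p6), read 5′ to 3′ on the strand of the gene with each CpG in capitals. The window of *Fgfr4* is chr13:55152568-55152817 on the plus strand, and that of the first listed start of *Fgfr3* is chr5:33721474-33721723 on the plus strand.
Fgfr4: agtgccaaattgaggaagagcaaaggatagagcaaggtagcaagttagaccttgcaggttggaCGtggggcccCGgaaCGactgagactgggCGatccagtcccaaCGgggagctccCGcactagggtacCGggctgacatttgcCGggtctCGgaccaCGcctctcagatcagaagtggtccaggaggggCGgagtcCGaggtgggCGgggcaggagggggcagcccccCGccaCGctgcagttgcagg
Fgfr3: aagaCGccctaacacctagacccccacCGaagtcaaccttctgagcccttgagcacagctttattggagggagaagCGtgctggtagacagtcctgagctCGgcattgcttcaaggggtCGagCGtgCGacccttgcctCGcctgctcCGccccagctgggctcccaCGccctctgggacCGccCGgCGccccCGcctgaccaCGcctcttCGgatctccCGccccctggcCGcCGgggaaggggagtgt
The *Fgfr4* window was 64.0% G or C with 15 CpG, and the *Fgfr3* window was 66.8% with 19 CpG, beside medians of 52.4% and 6 CpG over 32851 RefSeq promoters of the same length. Both strands were searched for an AP-1 site (TGANTCA), a myogenic E-box (CAGCTG), an ETS site (CCGGAAG) and a TATA box (TATAAA), which 6.75%, 13.0%, 6.91% and 12.4% of all promoters held. The *Fgfr3* window held 1 E-box and none of the other motifs, and the *Fgfr4* window held none of the 4. The window of the second listed start of *Fgfr3* was 72.8% G or C with 24 CpG and held none of the 4 motifs. The listed window of *Fgfr2*, which also fell, was 44.0% G or C with 2 CpG. That of *Fgfrl1*, which did not pass, was 73.6% with 30 CpG. A link between these measures and the falls was not tested. Most of the *Fgfr4* window lies inside the gene as GENCODE M21 draws it, which starts at 55152640.

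*Fgfr4* (ENSMUSG00000005320, chromosome 13, 55152640 to 55168759 in GENCODE M21 on GRCm38), whose protein is typical of muscle progenitors, lay at 562, 466, 550.5 and 493 CPM in the 4 quiescent WT libraries and at 498, 457, 514 and 466 CPM in the 4 quiescent KO libraries. In activated cells it lay at 14.9 and 7.01 CPM in WT and at 4.62 and 5.70 CPM in KO libraries. Each activated library was far below each quiescent one, and the 8 quiescent libraries differed by at most 1.23-fold. The log2 fold change was -5.50 (SE 0.35, adjusted p = 1.41e-08) in WT and -6.54 (SE 0.38, adjusted p = 3.61e-09) in KO cells. These were the largest fitted falls among members with counts in each library.

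*Fgfr1* (ENSMUSG00000031565, chromosome 8, 25513654 to 25575718), the receptor for basic FGF most often named in satellite cells, lay at 765, 700.0, 1555 and 2035 CPM in quiescent WT and at 783, 778, 986 and 2001 CPM in quiescent KO libraries. Activated WT libraries held 456 and 185 CPM and activated KO libraries 223 and 185 CPM. States did not overlap, but the quiescent libraries spread over 2.91-fold, with replicate 4 of each genotype the highest. Its log2 fold change was -1.98 (SE 0.49, adjusted p = 0.00491) in WT and -2.48 (SE 0.51, adjusted p = 0.000882) in KO cells. Without activated WT replicate 2 the WT change was -1.41 and did not pass (adjusted p = 0.102).

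*Fgfr3* (chromosome 5, 33721674 to 33737068) lay at 34.2, 32.4, 32.7 and 42.0 CPM in quiescent WT and at 39.3, 21.1, 31.8 and 30.3 CPM in quiescent KO libraries. In activated cells it lay at 3.43 and 4.38 CPM in WT and 3.34 and 3.19 CPM in KO libraries, below each quiescent library. The fall was 9.28-fold in WT and 9.37-fold in KO cells (adjusted p = 1.97e-06 and 1.51e-06 from edgeR). An antisense gene, G630022F23Rik, covers 13.9% of the *Fgfr3* exon bases and stayed at or below 1.20 CPM in each library.

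*Fgfr2* (chromosome 7, 130162451 to 133123350) was a minor receptor at 6.26, 6.24, 5.31 and 6.26 CPM in quiescent WT and 3.55, 6.83, 5.28 and 6.99 CPM in quiescent KO libraries. In activated cells it was read 2 times over both WT libraries, at 0.327 and 0 CPM, and 1 time over both KO libraries, at 0 and 0.228 CPM. Summed over libraries it was lower in activated cells by a ratio of 25.1 in WT (exact Poisson 95% interval 6.91 to 208.0) and 46.4 in KO (8.28 to 1836), intervals that cover counting error only. It passed the test in both genotypes (adjusted p = 0.000207 and 0.000103 from edgeR).

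*Fgfrl1* lay at 16.8 to 32.7 CPM in quiescent and 25.7 to 37.2 CPM in activated libraries, with log2 fold changes of 0.43 (SE 0.28) in WT and 0.10 (SE 0.28) in KO cells. It was the only receptor whose states overlapped in these libraries.

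Per kilobase of exon, the scale on which genes can be compared, *Fgfr4* at 146 ± 12.9 (SD, n = 4) and *Fgfr1* at 128 ± 65.3 (SD, n = 4) CPM per kb led the members in quiescent WT cells, and they did not differ beyond the spread of *Fgfr1*. Of the summed level per kb of the 4 signaling receptors, *Fgfr4* made up 38.8% to 65.7% in quiescent and 5.37% to 9.29% in activated libraries. The share of *Fgfr1* was 32.1% to 59.7% in quiescent and 87.8% to 92.7% in activated libraries. The sum itself was 207.5 to 351.7 CPM per kb in quiescent and 20.8 to 50.9 CPM per kb in activated libraries. *Fgfr4* held the larger share in WT replicates 1 and 2 and KO replicates 1 to 3, *Fgfr1* held it in replicate 4 of both genotypes, and the shares were nearly equal in WT replicate 3 (48.9% and 49.5%). In the 4 activated libraries most of the sum was *Fgfr1*, as the plot of receptor levels by library shows. In RNA from sorted populations, fewer cells that express a gene and less RNA per cell cannot be told apart.

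**Figure D1:**
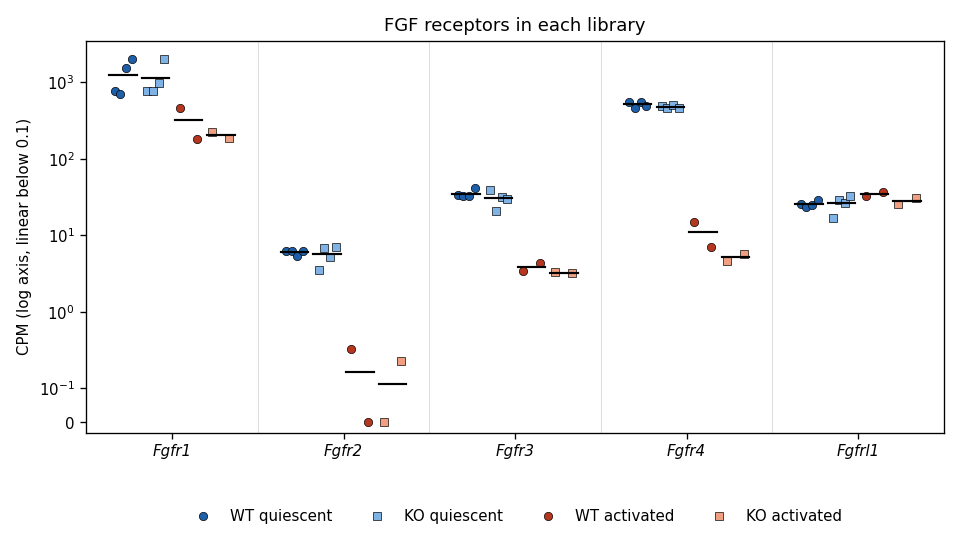
CPM of the 5 FGF receptors (log axis, linear below 0.1), with 1 point per library in the 4 groups and a bar at each group mean. *Fgfr1* to *Fgfr4* were lower in the 4 activated libraries than in the 8 quiescent ones, and *Fgfrl1* overlapped between the states.

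Among the feedback inhibitors, *Spry1* fell in both genotypes and its relative *Spry2* did not pass the test in either. *Spry1* (ENSMUSG00000037211, chromosome 3, 37639947 to 37644598) lay at 243, 168, 206 and 179 CPM in quiescent WT and at 142, 141, 194 and 159 CPM in quiescent KO libraries. In activated cells it lay at 30.4 and 48.6 CPM in WT and at 34.2 and 38.6 CPM in KO libraries, so the highest activated library was well below the lowest quiescent one. It fell 5.09-fold in WT (log2 fold change -2.35, SE 0.29, adjusted p = 5.54e-06) and 4.38-fold in KO cells (-2.13, SE 0.29, adjusted p = 1.26e-05). *Spry2* lay at 132 to 379.5 CPM in quiescent and 216 to 339 CPM in activated libraries, with log2 fold changes of 0.23 (SE 0.35) in WT and 0.40 (SE 0.35) in KO cells.

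The start regions of these paralogs are shown because 1 fell while the other did not pass the test. The 250 bases before the RefSeq start of *Spry1* are chr3:37639697-37639946 on the plus strand, and those of *Spry2* are chr14:105896820-105897069 on the minus strand, again with CpG in capitals.
Spry1: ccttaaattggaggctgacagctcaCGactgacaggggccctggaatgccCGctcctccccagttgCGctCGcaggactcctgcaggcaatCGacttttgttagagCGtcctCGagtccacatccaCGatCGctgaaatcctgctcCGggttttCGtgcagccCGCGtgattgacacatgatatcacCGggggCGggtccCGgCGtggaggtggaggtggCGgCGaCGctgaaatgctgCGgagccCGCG
Spry2: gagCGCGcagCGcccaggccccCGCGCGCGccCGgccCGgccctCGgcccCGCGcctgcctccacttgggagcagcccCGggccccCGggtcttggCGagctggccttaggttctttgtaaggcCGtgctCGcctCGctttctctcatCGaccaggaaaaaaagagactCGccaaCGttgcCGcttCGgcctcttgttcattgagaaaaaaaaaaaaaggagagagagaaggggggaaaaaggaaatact
Each window was 62.4% G or C with 23 CpG, and neither held any of the 4 motifs searched, so by these measures the paralogs were alike.

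*Spry4* lay at 169.5, 157, 148 and 187 CPM in quiescent WT and 124, 116, 159 and 176 CPM in quiescent KO libraries, against 99.2 and 90.6 CPM in activated WT and 74.2 and 68.4 CPM in activated KO libraries. No activated library reached a quiescent one. The log2 fold change was -0.80 in WT (SE 0.25, adjusted p = 0.0205), short of the fold limit, and -1.01 in KO cells (SE 0.25, adjusted p = 0.00426), just beyond it. In KO cells it fell short of the limit in 6 of 9 alternative settings and without any 1 of 5 libraries, at -0.996 to -0.89 without WT quiescent replicates 1 or 2, KO quiescent replicates 3 or 4 or activated KO replicate 2.

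The Spred proteins, which act on Ras like the Sproutys, followed in KO cells for *Spred1* and *Spred3*. *Spred1* lay at 159, 162, 225 and 341 CPM in quiescent WT and 192, 157, 213 and 360.4 CPM in quiescent KO libraries, and at 157, 81.4, 108 and 103 CPM in activated WT replicates 1 and 2 and KO replicates 1 and 2. Activated WT replicate 1 came level with the lowest quiescent libraries, and the other activated libraries lay below them. It changed by -1.13 (log2, SE 0.38, adjusted p = 0.0263) in KO cells and by -0.89 (SE 0.37, adjusted p = 0.0767) in WT cells. The KO call was lost without quiescent KO replicate 4 (-0.82), activated KO replicate 1 (-1.17) or activated KO replicate 2 (-1.08), at adjusted p = 0.0617, 0.122 and 0.151. In WT cells the change was -1.37 and passed without activated replicate 1 (adjusted p = 0.0480).

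*Spred3* lay at 21.7, 14.3, 27.1 and 31.7 CPM in quiescent WT and 27.8, 14.5, 23.5 and 37.4 CPM in quiescent KO libraries, against 16.3 and 6.57 CPM in activated WT and 6.94 and 11.9 CPM in activated KO libraries. It fell 2.74-fold in KO cells (adjusted p = 0.0167) and had a log2 fold change of -0.99 in WT cells (SE 0.43, adjusted p = 0.0904). Without activated KO replicate 1 the KO change was -1.12 and did not pass (adjusted p = 0.193), and without activated WT replicate 1 the WT change was -1.77 and passed (adjusted p = 0.0411). *Spred2* lay at 48.6 to 71.7 CPM in quiescent and 35.1 to 78.8 CPM in activated libraries and passed in neither genotype.

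None of the 3 ERK phosphatases fell by this test in either genotype. *Dusp4*, a nuclear phosphatase induced by ERK, was the only member that rose in WT cells, from 38.4, 32.1, 44.1 and 58.7 CPM in quiescent to 163 and 68.3 CPM in activated libraries (log2 fold change 1.42, SE 0.43, adjusted p = 0.0177). In KO cells it lay at 38.9, 29.2, 35.1 and 45.6 CPM in quiescent and at 82.7 and 14.4 CPM in activated libraries, 1 above and 1 below the whole quiescent range. The activated libraries disagreed within each genotype, and the calls followed them. In each genotype replicate 2 was the lower and had the larger share of CT010467.1 reads, a link that was not tested. Without activated WT replicate 1 the WT change was 0.73 (adjusted p = 0.427), and in a robust quasi-likelihood fit of all libraries the WT call was lost (adjusted p = 0.0628). The KO change of 0.38 became -1.37 (adjusted p = 0.0484) without activated KO replicate 1 and 1.17 (adjusted p = 0.0341) without activated KO replicate 2.

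*Dusp5*, another nuclear ERK phosphatase, lay at 78.3 to 196 CPM in quiescent and 179.5 to 237 CPM in activated libraries, with log2 fold changes of 0.59 (SE 0.35) in WT and 0.83 (SE 0.34, adjusted p = 0.0707) in KO cells. *Dusp6*, the cytoplasmic ERK phosphatase widely used as a readout of FGF signaling, lay at 35.3 to 91.0 CPM in quiescent and 38.0 to 109.8 CPM in activated libraries. Neither passed the test. Per kb, *Spry2* (119 ± 22.2 in WT and 146 ± 23.9 in KO cells, SD, n = 2) and *Dusp5* (77.2 ± 6.50 and 86.2 ± 13.9) led the members in activated cells, ahead of each receptor.

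**Figure D2:**
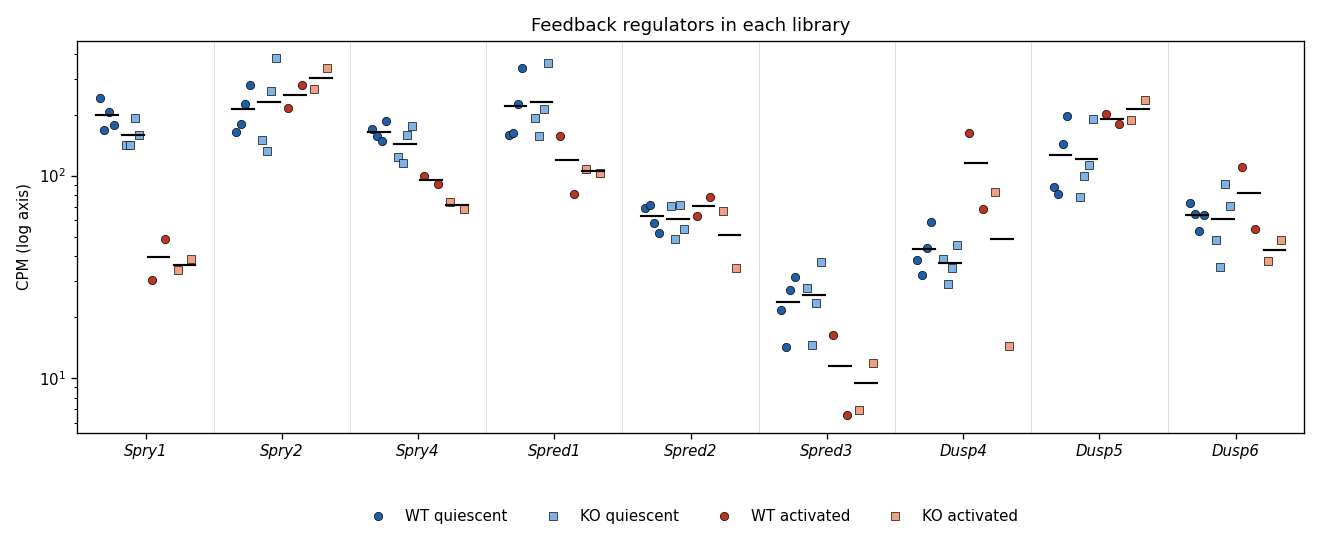
CPM of the 9 feedback regulators (log axis), with 1 point per library in the 4 groups and a bar at each group mean. *Spry1* and *Spry4* were lower in each activated library than in each quiescent one, and the activated libraries of *Dusp4* ran from 14.4 to 163 CPM.

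The ligand genes were mostly at low levels. Quiescent libraries held 105.0 to 123.5 CPM and activated libraries 50.6 to 97.4 CPM over all 22 *Fgf* genes together, and only 5 to 7 and 4 to 5 of them exceeded 5 CPM in a library. At least 3 counts were found for 14 to 19 *Fgf* genes in quiescent and for 9 to 13 in the shallower activated libraries. The leading genes were *Fgf11*, *Fgf13*, *Fgf1*, *Fgf2* and *Fgf16*.

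*Fgf11*, an intracellular FGF that is not secreted and does not act through these receptors, fell in both genotypes. It lay at 43.1, 41.1, 37.2 and 34.4 CPM in quiescent WT and 28.2, 38.3, 34.8 and 36.8 CPM in quiescent KO libraries, against 10.6 and 9.63 CPM in activated WT and 6.68 and 6.16 CPM in activated KO libraries. States did not overlap. The fall was 3.82-fold in WT (adjusted p = 3.54e-05) and 5.38-fold in KO cells (adjusted p = 3.97e-06 from edgeR).

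*Fgf13*, of the same intracellular subfamily and known as a partner of sodium channels and microtubules, lay at 12.1, 15.1, 11.1 and 12.4 CPM in quiescent WT and 16.1, 17.1, 13.3 and 12.3 CPM in quiescent KO libraries. It lay at 4.41 and 4.82 CPM in activated WT and at 8.73 and 14.8 CPM in activated KO libraries. The WT libraries separated and the KO libraries overlapped. The log2 fold change was -1.47 in WT (SE 0.37, adjusted p = 0.00527) and -0.32 in KO cells (SE 0.33, adjusted p = 0.444), and without activated WT replicate 1 the WT change was -1.32 (adjusted p = 0.107). *Fgf12* had log2 fold changes of -1.34 (SE 0.58) and -1.33 (SE 0.61), and neither it nor *Fgf14* passed.

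*Fgf2*, which encodes basic FGF, lay at 17.4, 13.6, 21.7 and 33.4 CPM in quiescent WT and 31.5, 18.9, 16.6 and 34.6 CPM in quiescent KO libraries. Activated WT libraries held 33.2 and 14.0 CPM, inside the quiescent range, and activated KO libraries 6.42 and 11.9 CPM, below it. It fell 2.77-fold in KO cells (log2 fold change -1.47, SE 0.46, adjusted p = 0.0181) with a value of 0.16 in WT cells (SE 0.41, adjusted p = 0.769). Without activated KO replicate 1 the KO change was -1.10 and did not pass (adjusted p = 0.209). *Nudt6*, transcribed from the opposite strand, shares 9.44% of the *Fgf2* exon bases, and whether counting used strand was not stated.

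*Fgf10* and *Fgf4* passed the test on few counts. *Fgf10*, a mesenchymal ligand, had 0, 1.42, 0.702 and 0.337 CPM in quiescent WT, 0.104, 0, 0 and 0.0472 CPM in quiescent KO, 1.47 and 0.438 CPM in activated WT and 0.257 and 4.56 CPM in activated KO libraries. The KO call rested on 3 counts over 4 quiescent libraries against 21 counts over 2 activated libraries, 20 of them in replicate 2, a ratio of 66.9 (exact Poisson 95% interval 19.96 to 350.1). Without that library it did not pass (log2 fold change 2.54, adjusted p = 0.519), and with DESeq2 it missed only the limit on the mean count. *Fgf4*, a ligand of early embryos and limb buds, had 1.77, 0.710, 1.97 and 0.722 CPM in quiescent WT, 0.469, 0.820, 1.74 and 0.283 CPM in quiescent KO and 0 in all 4 activated libraries. Against a floor of 3 counts over the group it was at least 3.79-fold lower in activated WT cells, where it passed (adjusted p = 0.0336), and at least 2.41-fold lower in activated KO cells, where it missed only the limit on the mean count (adjusted p = 0.0493, mean count 7.95). The WT call of *Fgf4* was lost without any 1 of 4 libraries, quiescent WT replicates 1 or 3 (adjusted p = 0.0574 and 0.0657) or activated WT replicates 1 or 2 (0.292 and 0.135), with no filter on low counts (0.0572), and with DESeq2, where it missed only the limit on the mean count.

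The paracrine ligand *Fgf1* lay at 6.47 to 19.1 CPM in quiescent and 9.25 to 21.9 CPM in activated libraries, and *Fgf16* at 2.80 to 16.4 and 6.62 to 11.3 CPM. *Fgf9* lay at 1.89 to 12.2 CPM in quiescent and 0 to 2.78 CPM in activated libraries, with log2 fold changes of -1.58 (SE 0.80) in WT and -1.86 (SE 0.80, adjusted p = 0.0790) in KO cells. The other ligands tested, *Fgf6*, *Fgf7*, *Fgf8*, *Fgf17*, *Fgf18*, *Fgf21*, *Fgf22* and *Fgf23*, had group means of at most 3.34 CPM, and none passed in either genotype. *Fgf6*, a ligand long associated with skeletal muscle, lay at 0.0482 to 1.18 CPM in quiescent and 0.456 to 1.54 CPM in activated libraries. The 4 genes that were too low to test were *Fgf3*, with 7, 2, 3 and 0 counts summed over quiescent WT, quiescent KO, activated WT and activated KO libraries, *Fgf5* with 11, 15, 0 and 2, *Fgf15* with 0, 1, 6 and 1, and *Fgf20* with 44, 13, 0 and 0.

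**Figure D3:**
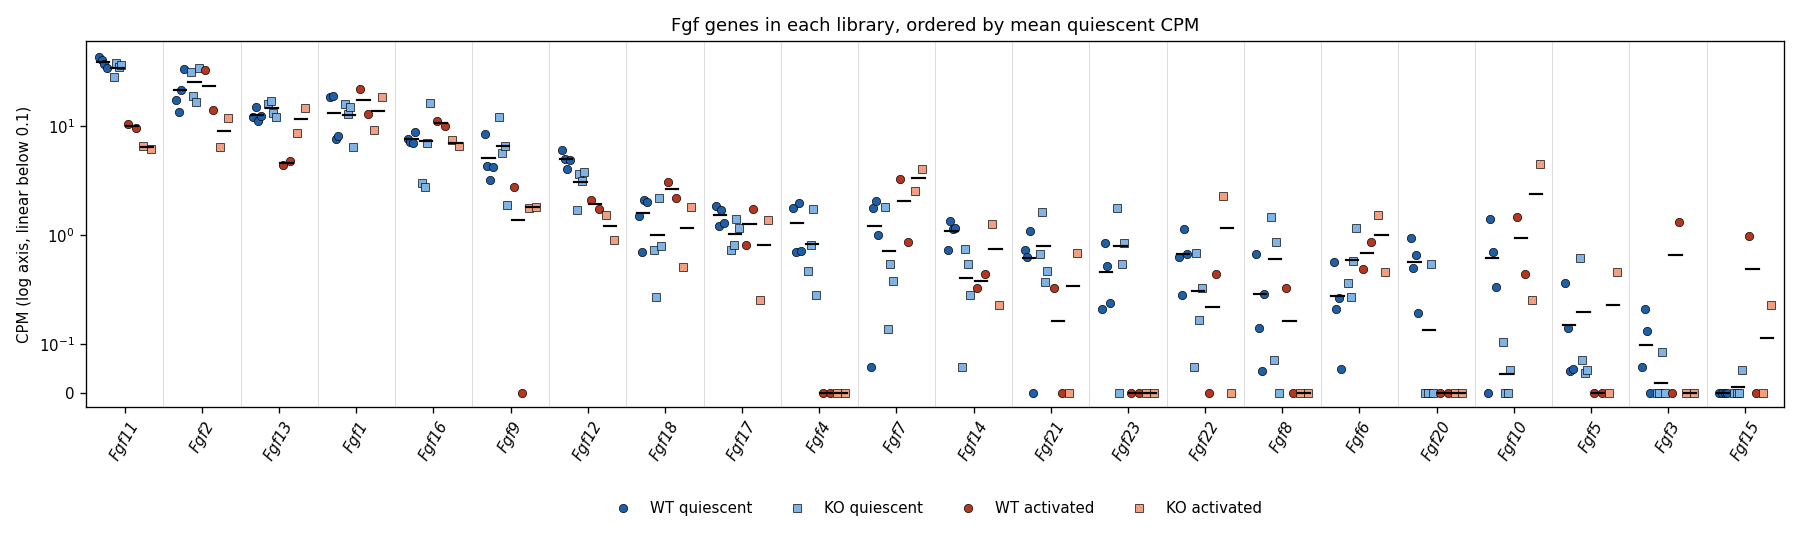
CPM of the 22 *Fgf* genes (log axis, linear below 0.1), ordered by mean quiescent CPM, with 1 point per library in the 4 groups and a bar at each group mean. The upper genes reached 10 CPM or more, and *Fgf4*, *Fgf20* and *Fgf23* were at 0 in the 4 activated libraries.

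Counted over the members, 9 of 32 changed on activation in WT cells, 1 higher and 8 lower, which is 28.1% beside 26.2% of all 25771 genes tested (9.65% higher and 16.5% lower). In KO cells 11 of 32 changed, 1 higher and 10 lower, which is 34.4% beside 29.6% of all genes (11.1% higher and 18.5% lower). These shares were near those of all genes, so the count itself is no result about FGF genes. The same 6 genes, *Fgfr1* to *Fgfr4*, *Spry1* and *Fgf11*, changed in both genotypes and all fell. *Dusp4*, *Fgf13* and *Fgf4* passed in WT cells alone, *Fgf2*, *Fgf10*, *Spry4*, *Spred1* and *Spred3* in KO cells alone, and 18 in neither.

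The median log2 fold change of the members was -0.84 in WT and -0.76 in KO cells, or -0.65 and -0.66 with genes at 0 in the activated group set to their bound. Over all genes tested the medians were -0.92 and -0.96, and they were -0.46 and -0.49 over the genes whose mean count reached 10. A member that fell by about 1 was near the medians of all genes tested, but below those of genes whose mean count reached 10. *Fgfr1* to *Fgfr4*, *Spry1* and *Fgf11* were more than 1 below the medians of all genes tested in both genotypes. Whether a member that passed in 1 genotype differed between genotypes is given by the difference between the KO effects in the states.

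**Figure D4:**
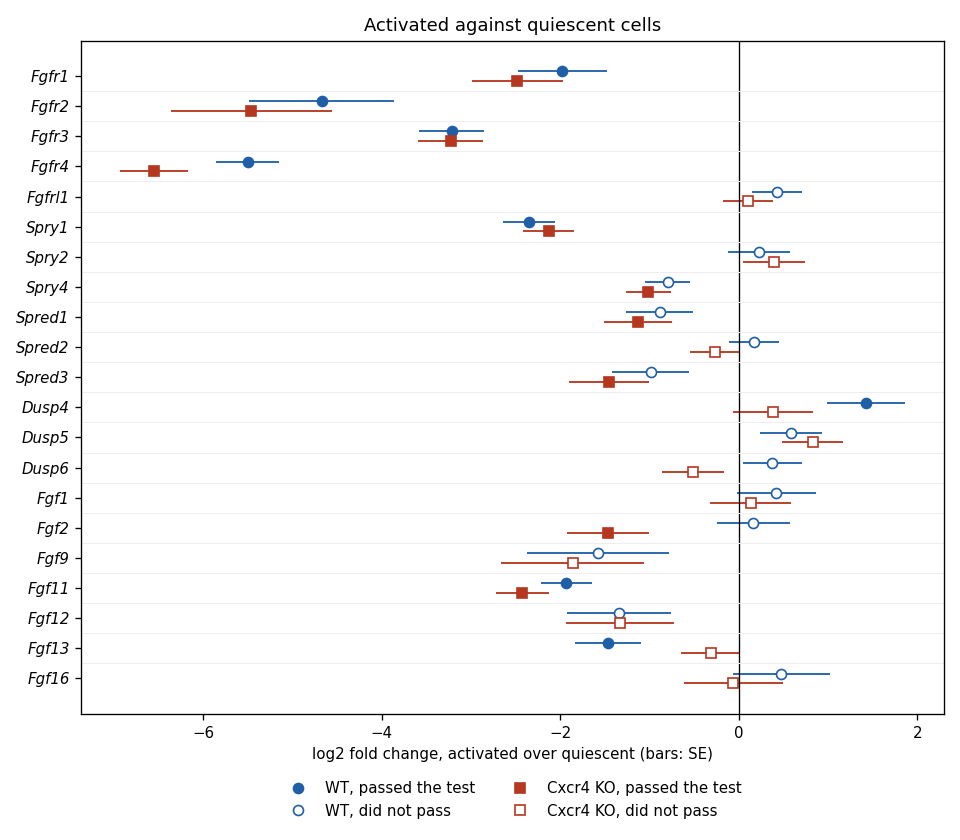
Log2 fold change of activated over quiescent cells for 21 members (ligands with few counts left out), in WT and KO cells, with bars of 1 SE and filled symbols where the test was passed. *Fgfr1* to *Fgfr4*, *Spry1* and *Fgf11* fell in both genotypes, and *Fgfrl1*, *Spry2*, *Spred2*, *Dusp5* and *Dusp6* passed in neither.

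Summed marker levels of muscle fibre, smooth muscle and pericyte, blood and Schwann cells did not overlap between the states. Those of endothelial cells and fibroadipogenic progenitors did, and no test was made on the sums. The summed level of 7 muscle fibre markers was 249.8 to 853 CPM in quiescent and 5736 to 14046 CPM in activated libraries, and that of 6 smooth muscle and pericyte markers was 1455 to 2650 and 179.8 to 399 CPM. Endothelial markers summed to 261 to 1172 and 97.2 to 678 CPM, and fibroadipogenic progenitor markers to 348 to 3267 and 279.8 to 746 CPM. Blood markers summed to 84.5 to 366 and 40.7 to 66.4 CPM, and Schwann cell markers to 169.1 to 394 and 30.7 to 137 CPM, with *S100b* and *Sox10* at 0 in an activated WT library. Of the 7 satellite cell markers, *Pax7*, *Myf5*, *Calcr*, *Chrdl2* and *Cdh15* fell in both genotypes, and *Myod1* passed in neither. *Itga7*, the other marker of that list, is not reported here. The 7 summed to 1973 to 4472 CPM in quiescent and 1547 to 2304.5 CPM in activated libraries, so the states overlapped. The part of these markers in the receptor and ligand changes was not tested.

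The comparison of KO with WT cells asks whether loss of *Cxcr4* alters the circuit in either state. *Cxcr4* itself fell in quiescent KO cells (log2 fold change -2.24, SE 0.31, adjusted p = 0.00477) but did not pass in activated KO cells (-1.35, SE 0.46, adjusted p = 0.381), where replicate 2 lay at 13.7 CPM in KO and 14.4 CPM in WT, so this test does not show its loss in the activated libraries. In quiescent cells no member passed the test, beside 0.0155% of all genes (4 of 25771), and 1 member, *Fgf10*, had an unadjusted p under 0.05, beside 448 genes (1.74%). DESeq2 on all libraries also called 0 members, beside 5 genes (0.0194%). The receptors differed by -0.20 to 0.03 on the log2 scale, with *Fgfr4* at -0.10 (SE 0.21) and *Fgfr1* at -0.15 (SE 0.37), and the Sprouty and Spred genes by -0.32 to 0.12. *Spry1* was the lowest of these at -0.32 (SE 0.21), with overlapping libraries. *Fgf12* was lower in each KO library than in each WT library (1.72 to 3.78 against 4.04 to 6.06 CPM), which held for 1 member and for 0.827% of all genes. No member was higher in each KO library, beside 0.869% of all genes, and the change of -0.70 (SE 0.40) for *Fgf12* did not pass.

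In activated cells no member passed either, beside 0.0504% of all genes (13 of 25771). DESeq2 on all libraries again called 0 members, beside 147 genes (0.57%). An unadjusted p under 0.05 was found for 5 members, 15.6% of those tested beside 8.37% of all genes, and the smallest adjusted p was 0.294. *Dusp6* was lower in KO cells (38.0 and 47.9 CPM against 109.8 and 54.7 CPM, log2 fold change -0.95, SE 0.40), and so were *Fgf2* (-1.39, SE 0.51), *Fgfr4* (-1.14, SE 0.36) and *Dusp4* (-1.26, SE 0.53), while *Fgf13* was higher (1.37, SE 0.41). The libraries of *Dusp4* overlapped between the genotypes and those of the other 4 did not. Without activated KO replicate 1, which left 1 activated KO library at 14.4 CPM, the log2 difference of *Dusp4* was -3.03.

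For 10 of 32 members each activated KO library lay below each WT library, beside 9.5% of all genes, and for 1 member, *Fgf13*, each lay above, beside 15.2% of all genes. The 10 were *Fgfr3*, *Fgfr4*, *Fgfrl1*, *Spry4*, *Dusp6*, *Fgf2*, *Fgf11*, *Fgf12*, *Fgf16* and *Fgf18*. The median log2 difference was -0.32 over the members and 0 over all genes. None of these members passed, 2 libraries a group limit the precision, and the members were read in the same 4 libraries, so they are not separate tests.

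The difference between the KO effects in activated and in quiescent cells also gave no member, beside 0% of all genes. An unadjusted p under 0.05 was found for 4 members and 1699 genes (6.59%). DESeq2 on all libraries gave 0 members, beside 53 genes (0.206%). The values were -1.63 (SE 0.60) for *Fgf2*, 1.15 (SE 0.49) for *Fgf13*, -1.05 (SE 0.41) for *Fgfr4* and 4.96 (SE 2.15) for *Fgf10*, with adjusted p from 0.630. That of *Dusp4* was -1.04 (SE 0.64). Members that passed on activation in 1 genotype alone were thus not shown to differ between the genotypes.

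**Figure D5:**
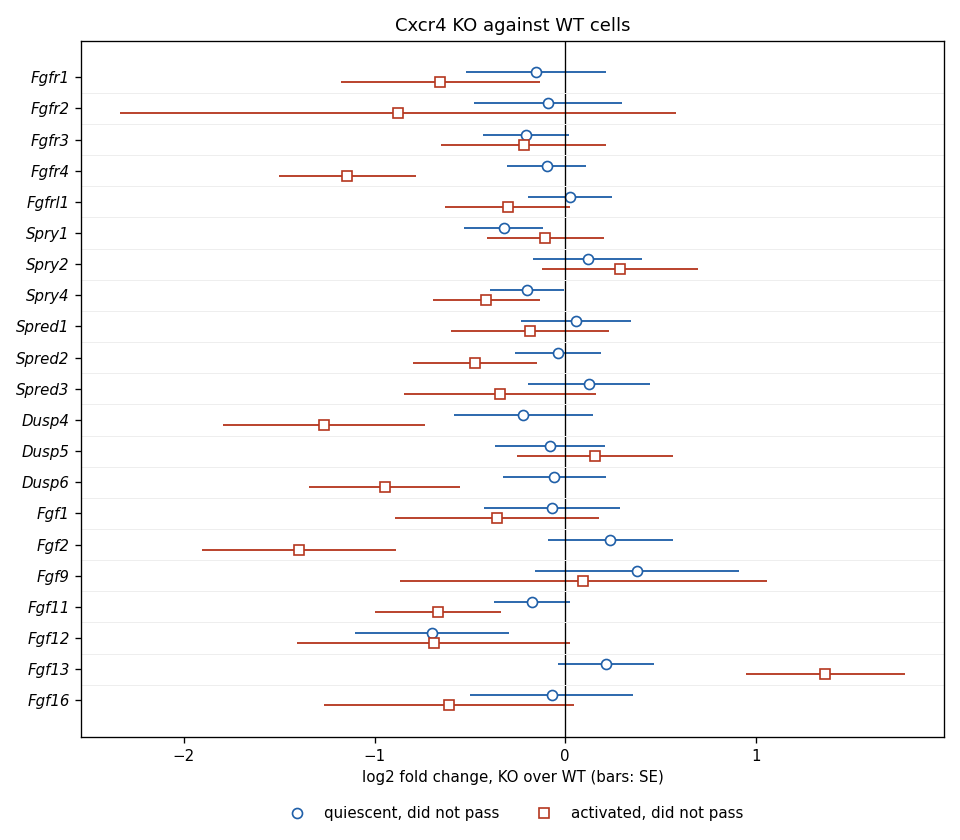
Log2 fold change of KO over WT for the same 21 members in quiescent and activated cells, with bars of 1 SE. No member passed the test in either state, and *Fgfr4*, *Dusp4*, *Dusp6*, *Fgf2* and *Fgf13* lay farthest from 0 relative to their SE in activated cells.

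The quiescent replicates also differed among themselves. For 10 of 32 members, *Fgfr1*, *Fgfrl1*, *Spry2*, *Spry4*, *Spred1*, *Spred3*, *Dusp4*, *Dusp5*, *Fgf2* and *Fgf16*, replicate 4 was the highest library in WT and in KO cells, beside 13.4% of all genes. *Spry2* rose to 282 and 379.5 CPM there from 164 and 149 CPM in replicate 1, and *Dusp5* to 196 and 190.2 CPM from 87.8 and 78.3 CPM. *Fgfr4* was not part of it and had a coefficient of variation of 7.81% over the 8 quiescent libraries, against 47.8% for *Fgfr1*. This grouping was noticed after the values were seen.

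Other genes of the pathway, in 5 lists of 64 genes, were followed on activation as well. In WT cells 28 of 64 changed, 9 higher and 19 lower (43.8% beside 26.2% of all genes), and in KO cells 31, 7 higher and 24 lower (48.4% beside 29.6%). The median log2 fold change was -0.61 in WT and -0.49 in KO cells, above the medians of all genes tested (-0.92 and -0.96). Over the genes whose mean count reached 10 the medians were -0.46 and -0.49, and 36.5% and 40.9% of those genes changed. The medians of the 64 genes together were not above these. Of the lists, adaptors and ERK cascade had medians above them, at -0.44 in WT and -0.29 in KO cells. Other negative regulators did so in WT cells alone, at -0.43.

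Among 13 receptor cofactors and FGF-binding proteins, 2 rose and 4 fell in WT and 2 rose and 7 fell in KO cells. These were 46.2% and 69.2% of the list, beside 26.2% and 29.6% of all genes. *Kl*, which encodes the FGF23 coreceptor Klotho, had 191 counts over quiescent and 0 over activated WT libraries, at least 6.97-fold lower, and 350 and 5 counts in KO libraries, a ratio of 7.33 (exact Poisson 95% interval 3.11 to 22.7). *Fgfbp1*, a secreted carrier that releases FGFs from the matrix, rose by 3.20 (SE 0.93) in WT and 2.90 (SE 0.93) in KO cells on the log2 scale, from 0 to 1.92 CPM in quiescent to 3.08 to 8.76 CPM in activated libraries. Of 8 genes that make or edit heparan sulfate, none rose and 3 fell in each genotype (37.5%, beside 26.2% and 29.6% of all genes). They included *Sulf1*, a sulfatase that trims heparan sulfate and weakens FGF binding, at -4.76 (SE 0.44) and -3.97 (SE 0.42), and the polymerase subunit *Ext2* at -1.87 (SE 0.33) in each.

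Of 21 adaptors and members of the ERK cascade, 2 rose and 4 fell in WT and 1 rose and 4 fell in KO cells. These shares, 28.6% and 23.8%, were near the 26.2% and 29.6% of all genes, so this count is no result about the cascade. *Gab1*, a docking protein downstream of receptors, fell by 2.31 and 2.36 (SE 0.33 each), and *Hras* rose by 1.82 and 1.79 (SE 0.23 each). Of 9 genes induced by ERK signaling, 2 rose and 4 fell in WT and 1 rose and 5 fell in KO cells. That is 66.7% of this list in each genotype, beside 26.2% and 29.6% of all genes. *Egr1* was at 6436 to 10239 CPM in quiescent and 190.3 to 521 CPM in activated libraries, with changes of -4.44 (SE 0.37) and -5.13 (SE 0.38), and *Ier3* changed by -2.39 (SE 0.41) and -3.48 (SE 0.44). Both are immediate early genes.

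Of 13 other negative regulators of Ras and MAP kinases, 3 rose and 4 fell in WT and 3 rose and 5 fell in KO cells. These were 53.8% and 61.5% of the list, beside 26.2% and 29.6% of all genes. *Dusp9*, a cytoplasmic ERK phosphatase, rose by 3.67 (SE 0.44) and 3.05 (SE 0.43), from 0.914 to 3.62 CPM in quiescent to 18.3 to 24.96 CPM in activated libraries. *Dusp1*, an immediate early phosphatase of several MAP kinases, fell by 2.66 (SE 0.48) and 3.91 (SE 0.51). The adjusted p of these named genes ran from 2.08e-08 to 0.0220 in edgeR's test. Between KO and WT cells none of the 64 passed in quiescent or activated cells or in the difference between them. An unadjusted p under 0.05 was found for 1, 15 and 10 of them, beside 1.74%, 8.37% and 6.59% of all genes. Of the 15, 6 were among the 9 genes induced by ERK signaling, and the smallest adjusted p was 0.252 in edgeR's test. They were read in the same libraries, so they are not separate tests.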

How the data were processed

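The authors trimmed paired reads with Trim Galore 0.6.0, aligned them to GRCm38 by STAR 2.7.2a and made gene counts from GENCODE annotation with Rsubread. The table the authors deposited holds raw counts for 55401 genes in 12 libraries, and strand setting and reads with several placements were not given in the sources used here. The deposited FPKM table holds 1 value per group from the authors. Of 144 member values, 133 were within 1 SD of the CPM per kb computed here. Of the others, *Fgf9* in activated KO cells was at 0.382 beside 0.390, and the rest were 0 in both. The authors' tests used DESeq2 1.34.0.

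Counts were filtered with filterByExpr, scaled by TMM and tested with edgeR 4.0.16 (limma 3.58.1, R 4.3.3) in 1 quasi-likelihood fit of the 4 groups, with Benjamini-Hochberg adjustment over 25771 genes. SE was the log2 fold change over the root of its F value. Exon lengths and coordinates are from GENCODE M21. The code was tested on simulated data. Alternatives were DESeq2 1.42.0, other scaling, filters and thresholds, a robust fit, a replicate block and leaving out each library.

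Members and gene lists were chosen with earlier results of these data known. By rule, members called in any contrast, *Fgfr1*, *Fgfr4* and *Spry1* were given by library, and in each list the 2 genes with the largest change called the same way in both genotypes were named. Of 36 members, 27 matched a RefSeq promoter.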

Additional observations from a re-analysis of the deposited data

Results flagged for a closer look

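*Fgfr1* in quiescent KO replicate 4 was far from the other 3 libraries of its group, at 2001 CPM beside 778 to 986 CPM, with a gap of 0.830 of the whole range. *Fgfr2* in quiescent WT replicate 3 was flagged in the same way, at 5.31 CPM beside 6.24 to 6.26 CPM, with a gap of 0.978 of the range. These were 2 of 28 groups of 4 libraries examined, and chance flags about 1 in 20 groups. The *Fgfr2* libraries differed by less than 1 CPM.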

How the results depend on the processing

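Members that changed on activation numbered 8 to 10 in WT and 9 to 12 in KO cells over the alternatives. Of all genes tested, 14.5% to 36.5% changed in WT and 16.2% to 40.9% in KO cells over the settings other than leaving out a library. Among those settings the lowest shares came with no filter on low counts and the highest with a mean count of at least 10. Between KO and WT activated cells the count was 0 in each setting that kept 2 libraries per activated group, beside 0.00775% to 0.712% of all genes. Without activated KO replicate 1, which left 1 activated KO library, the log2 difference of *Dusp4* was -3.03. For other pathway genes, KO against WT in activated cells gave 2 (*Dusp1*, *Sdc3*) with no filter on low counts, beside 0.712% of all genes. DESeq2 gave 1 (*Phlda1*), beside 0.57% of all genes. The difference between the KO effects gave 1 (*Sdc3*) with no filter, beside 0.365% of all genes. When each library was left out in turn, directions on activation reversed for *Fgf10* (-0.39 to 1.54) and *Fgf2* (-0.55 to 0.68) in WT cells, negative without activated WT replicate 1. In KO cells they reversed for *Fgf13* (-0.74 to 0.012) and *Dusp4* (-1.37 to 1.17), at the ends without activated KO replicate 1. The cause was not tested. Among single-gene values, 648 kept direction and call, 32 lost a call, 6 gained one and 4 reversed.

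With replicate number as a block, 10 members passed on activation in WT and 9 in KO cells, beside 25.7% and 28.4% of all genes. None passed between genotypes, beside 0.0194% of all genes in quiescent and 0.0892% in activated cells. *Fgf4* in WT (adjusted p = 0.0523) and *Fgf10* (0.0554), *Spry4* (log2 fold change -0.87), *Spred1* (-0.69) and *Spred3* (-0.99, adjusted p = 0.0598) in KO cells no longer passed, while *Dusp5* and *Fgf9* passed in both genotypes. Same-number deviations of quiescent WT and KO libraries correlated at 0.24, 0.16, -0.27 and 0.59, so not each pair deviated together, although replicate 4 did. Of the WT libraries replicate 4 alone correlated best with its own number in KO, and of the KO libraries each but replicate 3 did so in WT. Activated libraries gave -0.07, from 2 mirrored deviations a group. Activated libraries had fewer counts, so absence of a ligand below 0.490 to 1.31 CPM was not detectable in a single library.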
